A study of Mus musculus with 8 samples.

Results

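The genes described here are 45 genes of cell division: 17 genes of S phase and DNA replication, 19 mitotic genes, the D cyclins with their kinases (5 genes) and 4 inhibitors of cyclin-dependent kinases. Each gene was read by the array probe set, among those naming that gene alone, with the highest mean over all 8 arrays of the study. A probe set of this kind was found for 44 of the 45, out of 18193 genes on the array, and the level of Ccnb1 was not analysed here. Of these 44, 37 lay above the filter on low levels (a mean of log2 5.27, the 40th percentile of the probe sets) and entered the tests: 14 of 17 S phase genes, 15 of 18 mitotic genes, 5 of 5 D cyclins and kinases, and 3 of 4 inhibitors. Tyms, Tk1, Cdc6, Aurkb, Bub1, Kif11 and Cdkn2a lay below it. Ccnb2 was the 1 tested gene whose mean over the 6 arrays outside the untreated Irs2-/- group was under that level.

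A cell enters division when a D cyclin binds Cdk4 or Cdk6 and this complex phosphorylates the retinoblastoma protein, which frees E2F factors to switch on the genes of DNA replication. The mitotic genes follow later and share a promoter element, the cell cycle genes homology region (CHR), which the DREAM and MuvB complexes read. In pancreatic islets, where most adult beta cells rest, cyclin D2 is the D cyclin on which beta cell replication after birth depends in mice, and Irs2 carries the insulin and IGF-1 signals that promote it.

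RNA came from pancreatic islets of male C57Bl/6 mice in 4 groups of 2 arrays each: Irs2-/- mice given sodium tungstate, untreated Irs2-/- mice, wild-type (WT) mice given sodium tungstate, and untreated WT mice. Treatment was through the drinking water for 21 days, with mice 10 weeks old at its start and 13 weeks old at its end, and untreated mice drank distilled water. The concentration reads 2 mg/dl in the sample labels and 2 mg/ml in the text on the design, so it is not settled here. Samples are described as independent. The sources used here do not give whether each was 1 mouse or a pool, nor how the Irs2 allele was made, and p-values cover only the spread between these arrays. The study asked what sodium tungstate, a salt given by mouth in diabetes research, does to gene expression in islets of mice lacking Irs2.

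Irs2 itself read log2 4.78 and 4.86 in treated Irs2-/- islets, 4.54 and 4.89 in untreated Irs2-/- islets, 7.89 and 7.61 in treated WT islets, and 7.91 and 7.73 in untreated WT islets. Its level went with the labels on all 8 arrays. The mean of 9 beta cell markers lay between 10.80 and 12.11 on the 8 arrays, and was lower on the Irs2-/- arrays (11.07 and 11.64 treated, 10.80 and 10.99 untreated) than on the WT arrays (12.11 and 12.02 treated, 12.02 and 12.06 untreated). Levels are RMA values on the log2 scale, so levels of different probe sets are not compared with each other. Over all genes tested, the standard error (SE) of a log2 difference had a median of 0.14, a precision limited by the 2 arrays of each group.

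The arrays of a group did not carry the cell division genes at the same level. In untreated Irs2-/- islets, replicate 1 lay above replicate 2 for 41 of the 44 genes, where 41.7% of all genes did. In treated Irs2-/- islets replicate 2 was the higher array for 36 of 44 genes (54.1% of all genes). Replicate 1 was the higher array for 35 of 44 genes in treated WT islets (53.8% of all genes) and for 34 of 44 in untreated WT islets (53.9% of all genes). The mean level of 10 lymphocyte markers had the same order inside every group: 5.96 and 6.60 on replicates 1 and 2 of treated Irs2-/- islets, 8.18 and 7.34 in untreated Irs2-/- islets, 6.23 and 5.39 in treated WT islets, and 6.73 and 5.43 in untreated WT islets. The mean of 14 macrophage and antigen presentation markers was 7.61 and 7.77 in treated Irs2-/- islets, 8.89 and 8.95 in untreated Irs2-/- islets, 7.45 and 7.30 in treated WT islets, and 7.65 and 7.30 in untreated WT islets. The mean of 13 fibroblast and stellate markers was 8.15 and 7.74 in treated Irs2-/- islets, 8.67 and 8.27 in untreated Irs2-/- islets, 6.50 and 6.71 in treated WT islets, and 8.18 and 7.10 in untreated WT islets. These 3 marker lists were highest on the untreated Irs2-/- arrays, which also carried the highest levels of most division genes. The fibroblast list had a median difference of 0.90 between the untreated genotypes (12 of 13 positive), -0.67 with tungstate in Irs2-/- islets (13 of 13 negative) and -0.75 with tungstate in WT islets, and its part in the differences of the division genes was not tested. The mean of 15 acinar markers, a sign of exocrine tissue in the preparation, was 8.66 on replicate 1 of untreated WT islets and between 10.05 and 11.99 on the other 7 arrays. In whole-islet RNA, fewer or more cells of a type and less or more RNA per cell cannot be told apart.

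**Figure D1:**
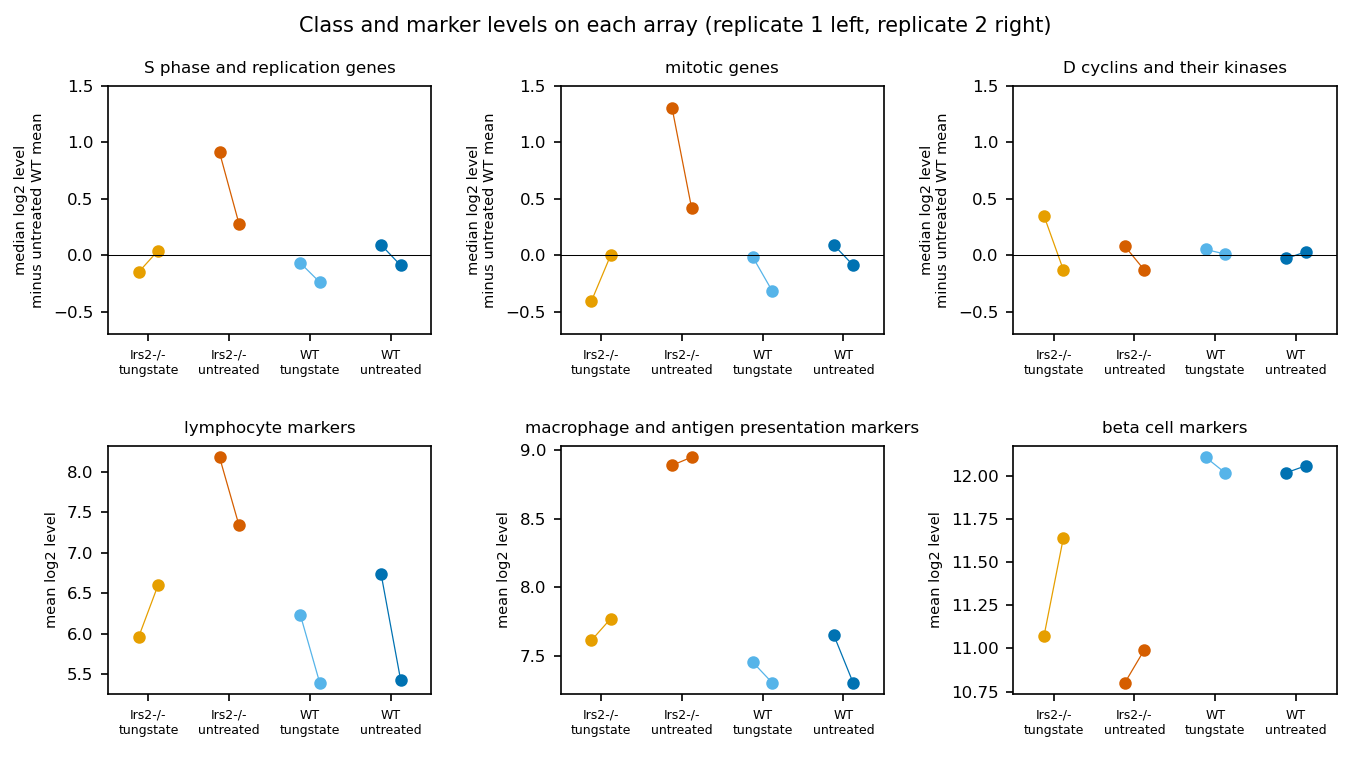
Each point is 1 array, with replicate 1 left and replicate 2 right in each group. The upper panels give the median log2 level of a gene class minus the untreated WT mean of each gene, and the lower panels the mean log2 level of a marker list. The S phase, mitotic and lymphocyte panels are all highest on untreated Irs2-/- replicate 1 (0.91, 1.30 and 8.18), and the D cyclin panel is not. The macrophage panel is highest on replicate 2 of that group (8.95, against 8.89 on replicate 1). The fibroblast list, not drawn, was also highest on replicate 1 (8.67).

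Promoter windows from RefSeq (build GRCm38.p6, 250 bases before to 50 bases after a gene's start site) were found for 38 of the 45 genes, 6 of them with 2 windows. None was found for Aurkb, Ccna2, Ccnd1, Ccnd2, Ccne2, Foxm1 and Mcm4. The windows were searched on both strands for the E2F words TTTCCCGC, TTTCGCGC, TTTGCCGC and TTTGGCGC, for the CHR word TTTGAA, and for CCAAT, the word read by the factor NF-Y. An E2F word stood in the windows of 7 of 15 S phase genes (46.7%), 1 of 16 mitotic genes (6.25%) and 2.6% of all genes with a window. The CHR word stood in 11 of 16 mitotic genes (68.8%), 1 of 15 S phase genes (6.67%) and 20.2% of all genes. CCAAT stood in 14 of 16 mitotic genes (87.5%), 9 of 15 S phase genes and 41.1% of all genes. The windows below belong to the genes that were higher in untreated Irs2-/- islets (Mcm5, Rrm2, Bub1b, Cks2 and Cdk6) and to Cdk1, which holds all 3 kinds of word, with the words in capitals.
Mcm5: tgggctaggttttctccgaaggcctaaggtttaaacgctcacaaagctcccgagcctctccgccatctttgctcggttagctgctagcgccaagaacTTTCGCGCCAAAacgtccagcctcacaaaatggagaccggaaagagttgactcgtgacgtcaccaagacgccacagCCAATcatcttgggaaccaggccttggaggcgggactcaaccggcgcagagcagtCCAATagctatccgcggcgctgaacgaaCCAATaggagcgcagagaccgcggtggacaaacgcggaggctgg
Rrm2: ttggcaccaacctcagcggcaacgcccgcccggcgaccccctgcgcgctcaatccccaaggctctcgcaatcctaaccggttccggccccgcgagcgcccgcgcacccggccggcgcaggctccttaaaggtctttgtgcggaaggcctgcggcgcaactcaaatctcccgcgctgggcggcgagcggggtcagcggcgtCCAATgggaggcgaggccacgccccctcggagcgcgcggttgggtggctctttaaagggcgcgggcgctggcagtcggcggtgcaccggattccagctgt
Bub1b: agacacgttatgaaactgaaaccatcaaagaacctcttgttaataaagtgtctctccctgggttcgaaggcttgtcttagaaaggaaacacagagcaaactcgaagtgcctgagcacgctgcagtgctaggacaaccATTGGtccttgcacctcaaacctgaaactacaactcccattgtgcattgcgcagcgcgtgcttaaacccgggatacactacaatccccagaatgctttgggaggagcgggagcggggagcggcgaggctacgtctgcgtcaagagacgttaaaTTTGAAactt
Cks2: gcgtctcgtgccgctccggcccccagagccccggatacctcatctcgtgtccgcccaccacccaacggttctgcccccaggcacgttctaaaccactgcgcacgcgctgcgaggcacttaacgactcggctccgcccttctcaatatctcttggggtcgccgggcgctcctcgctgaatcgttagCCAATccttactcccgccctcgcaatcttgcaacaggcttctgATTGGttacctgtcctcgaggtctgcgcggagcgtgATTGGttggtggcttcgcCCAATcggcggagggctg
Cdk1: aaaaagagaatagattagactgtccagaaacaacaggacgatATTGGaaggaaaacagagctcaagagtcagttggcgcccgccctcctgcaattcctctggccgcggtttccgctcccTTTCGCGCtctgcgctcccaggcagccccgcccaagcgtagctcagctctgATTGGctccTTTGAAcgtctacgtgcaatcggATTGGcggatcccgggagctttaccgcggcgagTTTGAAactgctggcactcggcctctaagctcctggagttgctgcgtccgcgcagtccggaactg
Cdk6: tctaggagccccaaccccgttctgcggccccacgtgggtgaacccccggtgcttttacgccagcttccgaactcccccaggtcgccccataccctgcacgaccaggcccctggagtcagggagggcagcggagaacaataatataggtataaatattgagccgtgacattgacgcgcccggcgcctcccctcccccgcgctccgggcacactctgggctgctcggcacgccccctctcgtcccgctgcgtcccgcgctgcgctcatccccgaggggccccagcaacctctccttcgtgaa
The Mcm5 window (chr8:75109259-75109558, plus strand) holds 2 E2F words on opposite strands that overlap, starting at positions -153 and -149 from the start site, and CCAAT at -77, -22 and 6. The Rrm2 window (chr12:24708004-24708303, plus strand) holds CCAAT at -50 and none of the 4 E2F words. The Bub1b window (chr2:118597961-118598260, plus strand) holds CCAAT at -113, on the minus strand, and the CHR word at 40. The Cks2 window (chr13:51644982-51645281, plus strand) holds CCAAT 4 times and no CHR word, and the Cdk1 window (chr10:69352863-69353162, minus strand) an E2F word at -131 and the CHR word at -71 and -15. The Cdk6 window (chr5:3343643-3343942, plus strand) holds none of these words. A match is a string of letters and does not show that a factor binds there.

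**Figure D2:**
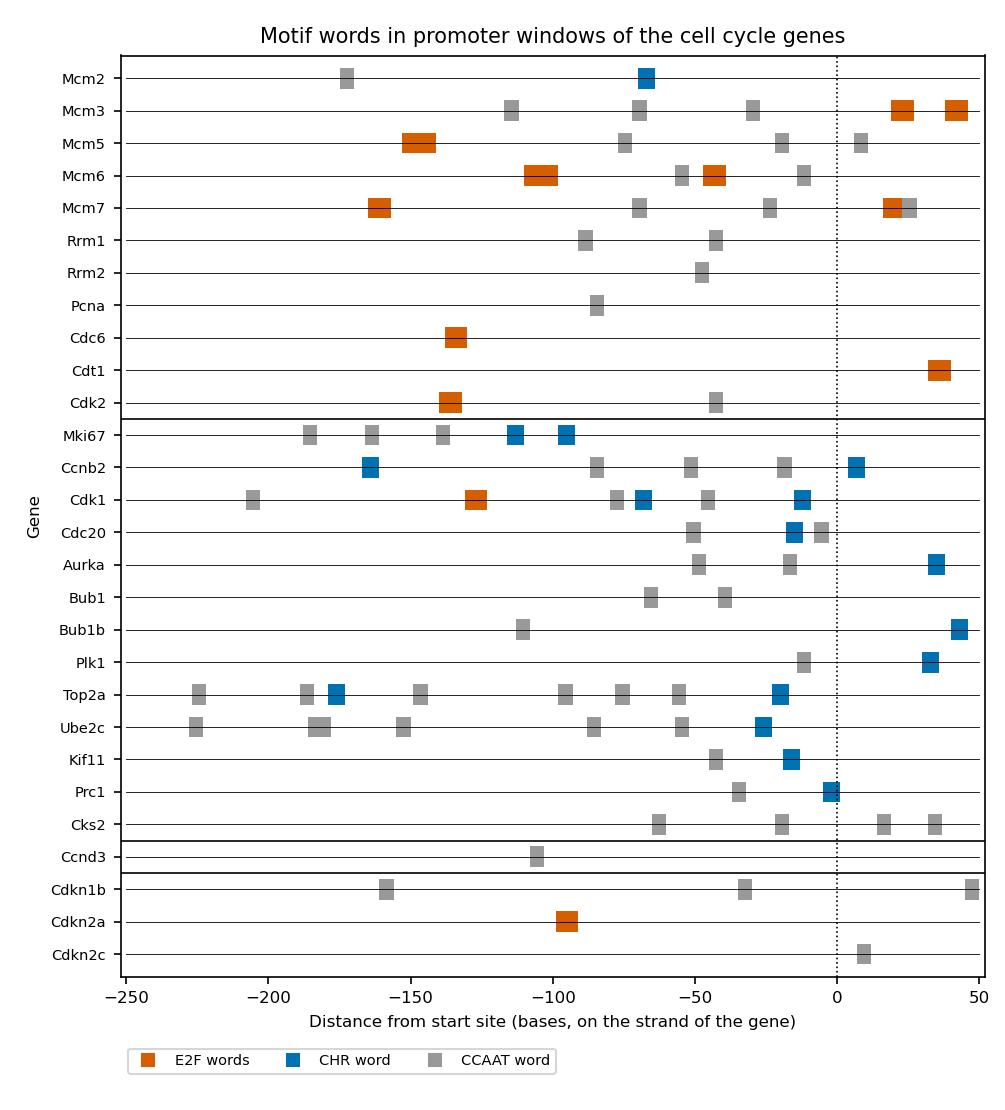
Each line is the promoter window of 1 of the 28 genes read on the arrays that have at least 1 matching word, drawn from 250 bases before to 50 after the start site on the strand of the gene, and the blocks are the words. E2F blocks lie mainly in the upper block of S phase genes (7 of 15 with a window) and CHR blocks mainly in the mitotic genes below them (11 of 16). In the Mcm7 window an E2F word and a CCAAT word share a base.

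In untreated mice, 5 of the 37 tested genes were higher in Irs2-/- than in WT islets (Mcm5, Rrm2, Bub1b, Cks2 and Cdk6) and 1 was lower (Ccnd2), by limma's moderated test with Benjamini-Hochberg adjustment over 13369 genes and a threshold of 0.05. Of all genes tested, 8.27% were called higher and 8.52% lower, against 13.5% and 2.7% of the division genes. Several others missed the threshold narrowly: Cdk1 had an adjusted p of 0.0505, Prc1 of 0.0543, Birc5 of 0.0558, and Mki67, Ube2c and Pcna of 0.056. Both untreated Irs2-/- arrays lay above both untreated WT arrays for 32 of the 44 genes (28.0% of all genes), and above all 6 other arrays for 26 of 44 (13.2% of all genes). The number called higher was 24 without replicate 2 of untreated Irs2-/- islets (6.64% of all genes in the same fit), 3 without its replicate 1 (3.07%), 2 without replicate 2 of untreated WT islets (2.51%), 3 without either treated WT array (5.01%) and 11 without either treated Irs2-/- array (9.88%). With the lymphocyte marker level as a covariate it was 0 of 37, and calls over all genes were also few in that fit, with 78 higher (0.583%) in place of 1106.

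**Figure D3:**
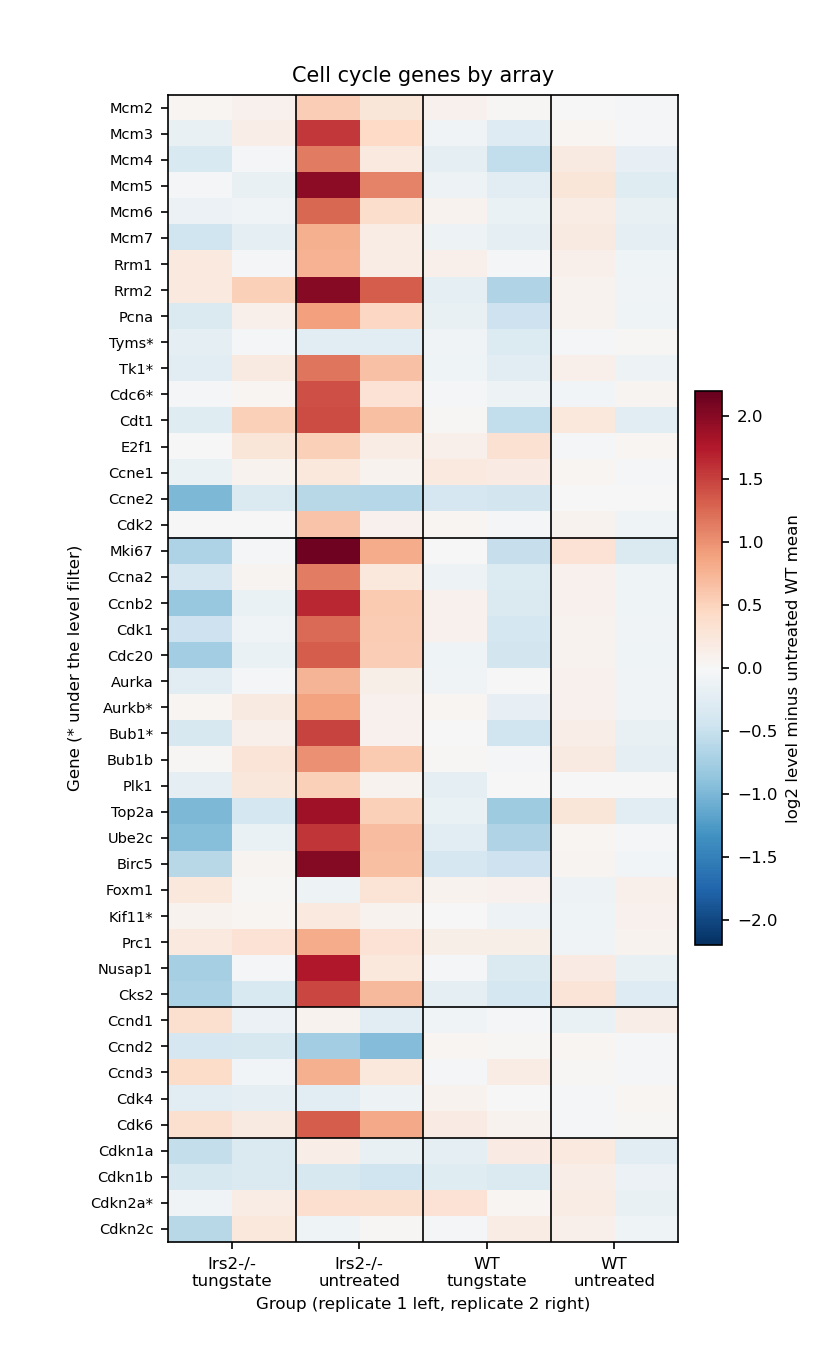
Rows are the 44 genes in their classes (from the top: S phase and replication, mitotic, D cyclins and kinases, inhibitors), columns are the 8 arrays, and colour is the log2 level minus the untreated WT mean of the gene. The untreated Irs2-/- columns are red for most S phase and mitotic genes, replicate 1 more than replicate 2, while Ccnd2 and Ccne2 are blue there.

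Among the S phase genes, Rrm2 and Mcm5 were higher in untreated Irs2-/- islets. Rrm2, the small subunit of the ribonucleotide reductase that makes DNA precursors, read 8.80 and 8.13 in untreated Irs2-/- islets, against 6.87 and 6.72 in untreated WT islets, a log2 difference of 1.67 ± 0.24 (SE; 3.18-fold, adjusted p = 0.00636). Mcm5, a subunit of the Mcm2 to Mcm7 helicase that unwinds DNA at origins, read 8.25 and 7.38, against 6.54 and 6.02, a difference of 1.54 ± 0.28 (2.9-fold, adjusted p = 0.0122). For both genes the lower untreated Irs2-/- array stood above the higher untreated WT array. Leaving out replicate 2 of untreated WT islets ended the Mcm5 call (1.28, adjusted p = 0.0665), and with the lymphocyte level as a covariate neither gene passed (Rrm2 1.02, adjusted p = 0.121; Mcm5 0.84, adjusted p = 0.224).

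The other helicase subunits had positive differences that did not pass: Mcm3 0.99 ± 0.32 (adjusted p = 0.0689), Mcm6 0.83 ± 0.27 (0.0695), Mcm4 0.68 ± 0.29 (0.147), Mcm7 0.47 ± 0.22 (0.173) and Mcm2 0.41 ± 0.12 (0.0578). All 6 subunits had positive differences, as had 9321 of all 18193 genes. For 5 of them, all but Mcm7, both untreated Irs2-/- arrays lay above every other array (13.2% of all genes). The subunits were read on the same arrays, so they are not separate observations. Mcm3 shows the spread behind these values: it read 7.85 and 6.73 in untreated Irs2-/- islets, against 6.35 and 6.25 in untreated WT islets. Cdt1, which loads the helicase onto origins, had a difference of 1.06 ± 0.35 (adjusted p = 0.0739), and Pcna, the sliding clamp of the polymerases, one of 0.68 ± 0.20 (0.056). Rrm1, the large reductase subunit, differed by 0.46 ± 0.21 (0.164), the kinase Cdk2 by 0.36 ± 0.18 (0.194), the transcription factor E2f1 by 0.35 ± 0.16 (0.171) and cyclin E1 (Ccne1) by 0.15 ± 0.12 (0.437).

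Cyclin E2 (Ccne2), a partner of Cdk2 at the start of S phase, went the other way. It read 6.11 and 6.09 in untreated Irs2-/- islets, against 6.72 and 6.71 in untreated WT islets, a difference of -0.61 ± 0.19 (adjusted p = 0.0662). It was the only S phase gene above the filter with a negative difference. Below the filter, in a fit of all 18193 genes, Tk1 (thymidine kinase) was higher by 0.90 ± 0.21 (adjusted p = 0.028), reading 6.04 and 5.50 in untreated Irs2-/- islets, against 4.98 and 4.74 in untreated WT islets. Cdc6, the other loader of the helicase, differed there by 0.86 ± 0.29 (0.0908) and Tyms (thymidylate synthase) by -0.25 ± 0.12 (0.226). Over the 17 S phase genes the median difference was 0.68, with 15 positive, against 0.006 over all genes with a probe set. The median of these genes, each set against its untreated WT mean, was 0.91 and 0.28 on replicates 1 and 2 of untreated Irs2-/- islets, against 0.09 and -0.09 in untreated WT islets, beside lymphocyte marker means of 8.18 and 7.34, against 6.73 and 5.43. With the lymphocyte level as a covariate the median was 0.15. That level was itself highest on the untreated Irs2-/- arrays, so this fit cannot separate it from the group. The part of lymphocytes in the difference was not tested.

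Of the mitotic genes, Cks2 and Bub1b were higher in untreated Irs2-/- islets. Cks2, a small subunit that binds cyclin-dependent kinases, read 7.63 and 6.88 in untreated Irs2-/- islets, against 6.45 and 5.87 in untreated WT islets, a difference of 1.10 ± 0.28 (2.14-fold, adjusted p = 0.0348). Bub1b, a kinase-like protein of the spindle checkpoint, read 6.64 and 6.21, against 5.82 and 5.44, a difference of 0.79 ± 0.19 (1.73-fold, adjusted p = 0.0289). In both the arrays of the groups did not overlap. Both calls were lost without replicate 1 of untreated Irs2-/- islets, without replicate 2 of untreated WT islets and without either treated WT array (adjusted p from 0.0593 to 0.168), and with the lymphocyte level as a covariate (Cks2 0.25, adjusted p = 0.612; Bub1b 0.28, adjusted p = 0.495).

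Mki67, which encodes the Ki-67 antigen used to count dividing cells, read 8.58 and 7.25 in untreated Irs2-/- islets, against 6.76 and 6.13 in untreated WT islets. Its difference of 1.47 ± 0.44 was the largest of the mitotic genes and did not pass (adjusted p = 0.056). Birc5, the survivin subunit of the chromosomal passenger complex, had one of 1.34 ± 0.40 (0.0558), Top2a, the topoisomerase that untangles chromosomes, of 1.19 ± 0.43 (0.0979), Ccnb2, a B cyclin, of 1.12 ± 0.36 (0.0683) and Ube2c, a ubiquitin-conjugating enzyme of the anaphase-promoting complex, of 1.12 ± 0.33 (0.056). For these genes the 2 untreated Irs2-/- arrays lay far apart: Birc5 read 7.53 and 6.17, against 5.57 and 5.45 in untreated WT islets. Cdk1, the mitotic kinase, was steadier, with 7.76 and 7.06 in untreated Irs2-/- islets, against 6.59 and 6.44 in untreated WT islets (0.90 ± 0.26, adjusted p = 0.0505).

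Nusap1, a spindle protein, differed by 0.99 ± 0.45 (adjusted p = 0.164), Cdc20, an activator of the anaphase-promoting complex, by 0.94 ± 0.29 (0.0609), cyclin A2 (Ccna2) by 0.68 ± 0.27 (0.127), Prc1, which bundles microtubules of the midzone, by 0.57 ± 0.17 (0.0543), Aurka (aurora kinase A) by 0.44 ± 0.20 (0.165) and Plk1 (polo-like kinase) by 0.31 ± 0.20 (0.326). Foxm1, a transcription factor of mitotic genes, stood apart from its class at 0.09 ± 0.16 (0.75), with 6.10 and 6.52 in untreated Irs2-/- islets, against 6.10 and 6.33 in untreated WT islets. It was the 1 mitotic gene whose untreated Irs2-/- replicate 1 was not above replicate 2. Under the filter, Bub1 differed by 0.79 ± 0.40, Aurkb by 0.48 ± 0.23 and Kif11 by 0.15 ± 0.12, with adjusted p of 0.248, 0.223 and 0.473 in the fit of all genes. Over the 18 mitotic genes the median difference was 0.85 and all 18 were positive. Set against untreated WT, their median was 1.30 and 0.42 on replicates 1 and 2 of untreated Irs2-/- islets, against 0.09 and -0.09 in untreated WT islets. In the fit with the lymphocyte covariate the median difference was 0.19, with the same limit as for the S phase genes.

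**Figure D4:**
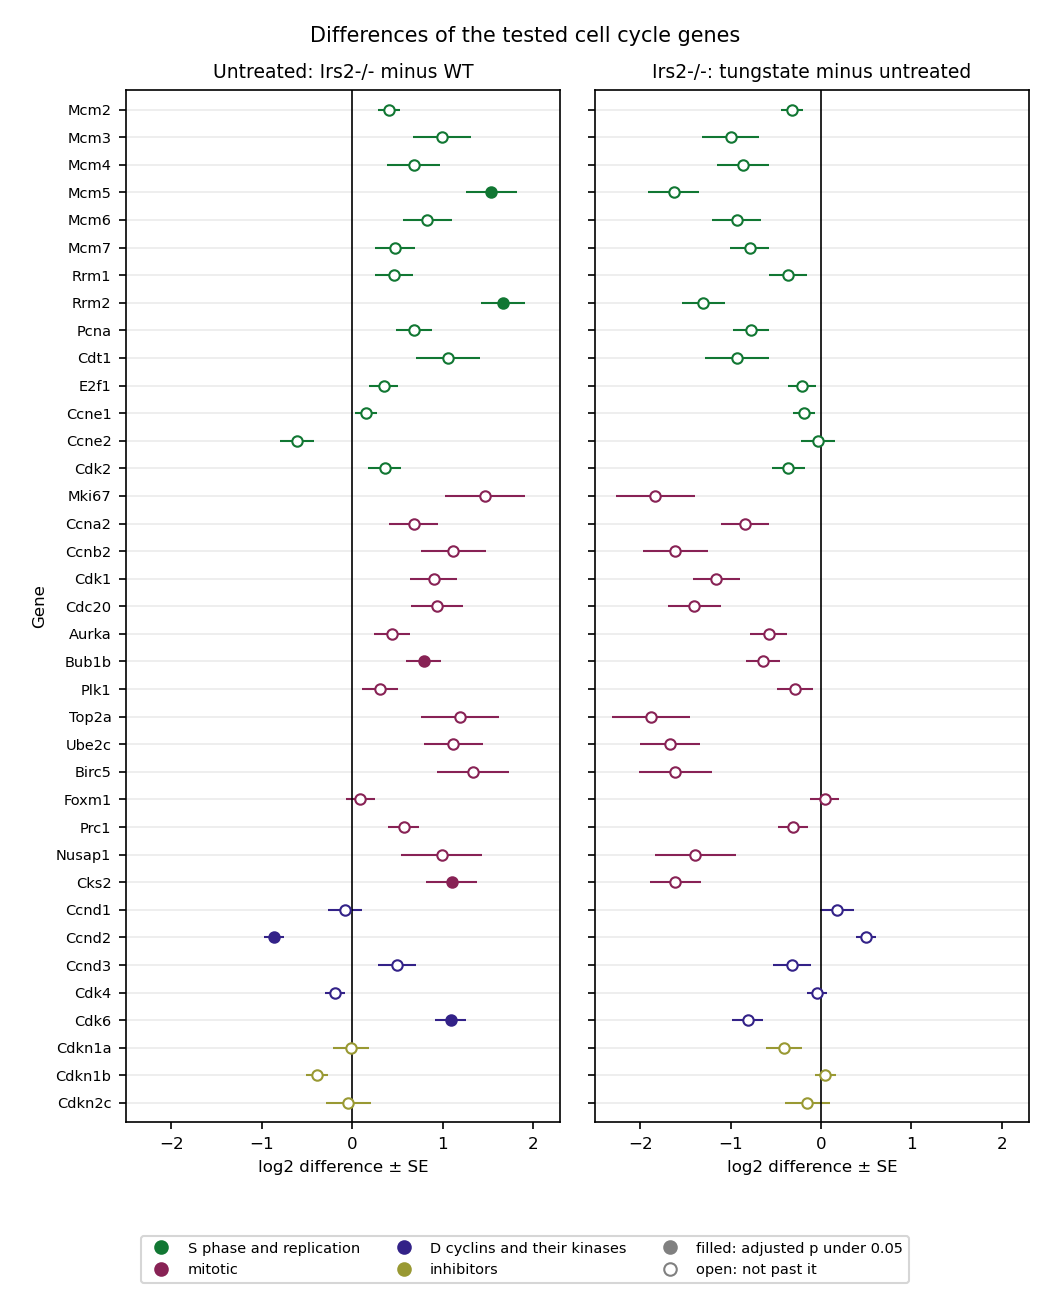
Points are log2 differences with their SE for the 37 tested genes, in untreated mice on the left (Irs2-/- minus WT) and for tungstate in Irs2-/- islets on the right (treated minus untreated), and filled points passed an adjusted p of 0.05. On the left 6 points are filled and the mitotic genes lie between 0.09 and 1.47. On the right none is filled, and the untreated Irs2-/- arrays serve both panels.

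The D cyclins and their kinases did not move as a class: 2 of the 5 genes had positive differences and 3 negative ones, with a median of -0.08. Set against untreated WT, the class median was 0.08 and -0.13 on replicates 1 and 2 of untreated Irs2-/- islets, on both sides of 0. Cyclin D2 (Ccnd2) was lower in untreated Irs2-/- islets, at 12.24 and 12.06, against 13.06 and 12.97 in untreated WT islets, a difference of -0.86 ± 0.11 (1.82-fold, adjusted p = 0.00399). All 7 of its probe sets were lower, with log2 differences between -1.45 and -0.83. Its call held without any single array, with differences between -0.95 and -0.77, and was lost with the lymphocyte level as a covariate although the difference was then -1.01 (adjusted p = 0.058). Beta cell markers were lower on the same arrays, with 6 of 9 called lower (8.52% of all genes tested), and their part in the Ccnd2 difference was not tested.

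Cdk6, a partner of the D cyclins, was higher in untreated Irs2-/- islets, at 6.81 and 6.30, against 5.44 and 5.49 in untreated WT islets, a difference of 1.09 ± 0.17 (2.13-fold, adjusted p = 0.00787). The other partner kinase did not follow it: Cdk4 read 9.29 and 9.41 in untreated Irs2-/- islets, against 9.50 and 9.57 in untreated WT islets (-0.19 ± 0.11, adjusted p = 0.272). Cyclin D3 (Ccnd3) read 8.18 and 7.63, against 7.43 and 7.38 (0.50 ± 0.21, 0.147), and cyclin D1 (Ccnd1) 11.15 and 10.84, against 10.92 and 11.22 (-0.08 ± 0.19, 0.824). The Ccnd1 arrays of the groups overlapped. Cdk6 passed without each single array, and not with the lymphocyte covariate (0.92, adjusted p = 0.139).

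No inhibitor passed the test in untreated mice, and the class median set against untreated WT was 0.03 and -0.07 on replicates 1 and 2 of untreated Irs2-/- islets. Cdkn1a, which encodes p21, read 8.14 and 7.84 in untreated Irs2-/- islets, against 8.22 and 7.77 in untreated WT islets (-0.01 ± 0.20, adjusted p = 0.985). Cdkn1b, which encodes p27, read 9.29 and 9.21, against 9.78 and 9.51 (-0.39 ± 0.12, 0.0675), so that its groups did not overlap. Its other probe set, of lower level, had group means of 5.4, against 6.69, a difference of -1.29. Cdkn1b was called lower with median centring and with the mean of probe sets. Cdkn2c, which encodes the Cdk4 and Cdk6 inhibitor p18, read 8.07 and 8.18, against 8.27 and 8.06 (-0.04 ± 0.25, 0.937). Cdkn2a, the locus of p16 and p19Arf, was under the filter at 4.85 and 4.84, against 4.65 and 4.32 (0.36 ± 0.16, adjusted p = 0.174 in the fit of all genes).

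**Figure D5:**
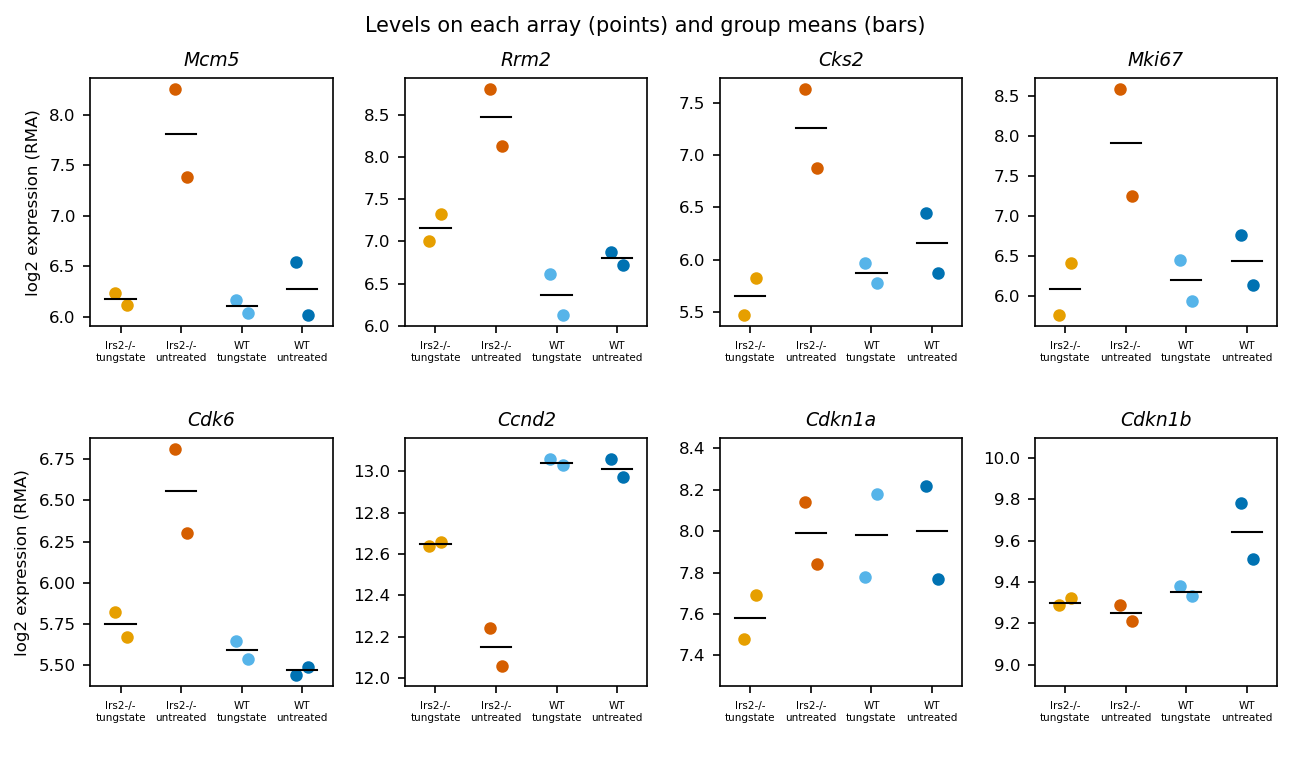
Points are the log2 levels of 8 genes on each array and bars the group means, with a scale of its own for each gene. Mcm5, Rrm2, Cks2, Mki67 and Cdk6 are highest on both untreated Irs2-/- arrays, and Ccnd2 is lowest there. For Cdkn1b the arrays of all other groups, treated WT included, lie below those of untreated WT.

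In Irs2-/- mice, tungstate was compared with plain water, with untreated Irs2-/- arrays that also served the comparison above, so the 2 comparisons share those arrays. No division gene passed the test (0 of 37, 0.494% of all genes tested). At an unadjusted p under 0.05, 22 of the 37 were lower in treated islets, against 9.55% of all genes: 9 S phase genes, 12 mitotic genes and Cdk6. Ccnb2, 1 of the 12 mitotic genes, passed the filter only through the untreated Irs2-/- arrays, so its part in this count is a description. Both treated arrays lay below both untreated arrays for 29 of the 44 genes (20.1% of all genes). The count past the adjusted threshold was 18 without replicate 2 of untreated Irs2-/- islets, where 1.98% of all genes were called (265 genes in place of 66), and 0 without each other array. It was 2 (Cks2 and Mcm5) with the acinar marker level as a covariate (1.31% of all genes).

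Mcm5 came closest among the S phase genes, at 6.24 and 6.12 in treated Irs2-/- islets, against 8.25 and 7.38 in untreated Irs2-/- islets (-1.63 ± 0.28, adjusted p = 0.0635). Both treated values lay within the range of the 4 WT arrays, 6.02 to 6.54. Rrm2 read 7.01 and 7.32 in treated islets, against 8.80 and 8.13 in untreated ones (-1.30 ± 0.24, 0.0862), and its treated arrays stood above all 4 WT arrays (6.13 to 6.87). Among the other helicase subunits Mcm3 was at -1.0 ± 0.32 (0.233), Mcm6 at -0.93 ± 0.27 (0.197), Mcm4 at -0.86 ± 0.29 (0.264), Mcm7 at -0.79 ± 0.22 (0.182) and Mcm2 at -0.32 ± 0.12 (0.313). That of Cdt1 was -0.93 ± 0.35 (0.307) and that of Pcna -0.77 ± 0.20 (0.167). Over the 17 S phase genes the median was -0.79, with 16 negative, against 0.009 over all genes with a probe set. Ccne2 was at -0.03 ± 0.19 (0.958), with 5.74 and 6.40 in treated islets, against 6.11 and 6.09 in untreated ones.

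Over the 18 mitotic genes the median difference with tungstate was -1.04, with 17 negative. Cks2 read 5.47 and 5.82 in treated Irs2-/- islets, against 7.63 and 6.88 in untreated ones (-1.61 ± 0.28, adjusted p = 0.0665). Ube2c read 5.05 and 5.83, against 7.55 and 6.66 (-1.67 ± 0.33, 0.0983), and Cdc20 5.94 and 6.56, against 8.05 and 7.25 (-1.40 ± 0.29, 0.104). The groups of these genes did not overlap, nor did those of Top2a, Mki67, Ccnb2 and Birc5 (20.1% of all genes). Differences of like size with a wider spread were those of Top2a (-1.88 ± 0.43, 0.124), Mki67 (-1.83 ± 0.44, 0.135), Ccnb2 (-1.61 ± 0.36, 0.118) and Birc5 (-1.61 ± 0.40, 0.147). Mki67 read 5.76 and 6.41 in treated islets, against 8.58 and 7.25 in untreated ones. Foxm1 was at 0.04 ± 0.16 (0.941). Lymphocyte markers had 0 of 10 and macrophage markers 7 of 13 tested genes past the threshold, all 7 lower. Of all genes tested, 0.494% passed it, and 0.471% were lower. The medians of these marker lists were -1.95 and -1.25. With the lymphocyte level as a covariate the medians were -0.18 for the S phase and -0.33 for the mitotic genes. That level was highest on the untreated Irs2-/- arrays, so this fit cannot separate it from the group. The part of these cells was not tested.

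Ccnd2 read 12.64 and 12.66 in treated Irs2-/- islets, against 12.24 and 12.06 in untreated ones, a difference of 0.50 ± 0.11 that did not pass (adjusted p = 0.12). Both treated arrays stood between the untreated Irs2-/- arrays and the WT arrays (12.97 to 13.06). Cdk6 read 5.82 and 5.67, against 6.81 and 6.30 (-0.81 ± 0.17, 0.107). Ccnd1 was at 0.18 ± 0.19 (0.727), Ccnd3 at -0.32 ± 0.21 (0.556) and Cdk4 at -0.04 ± 0.11 (0.915). Among the inhibitors, Cdkn1a read 7.48 and 7.69, against 8.14 and 7.84 (-0.41 ± 0.20, 0.436), with no overlap between the groups. Cdkn1b differed by 0.05 ± 0.12 (0.905) and Cdkn2c by -0.15 ± 0.25 (0.837).

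In WT mice, no division gene passed the test for tungstate (0 of 37, with 0.0% of all genes tested called), and 1, Cdkn1b, had an unadjusted p under 0.05 (2.72% of all genes). Cdkn1b read 9.38 and 9.33 in treated WT islets, against 9.78 and 9.51 in untreated WT islets (-0.29 ± 0.12). Both treated arrays lay below both untreated arrays for 10 of 44 genes (18.5% of all genes), a share near that background. The median difference was -0.17 over the S phase genes, -0.16 over the mitotic genes, 0.04 over the D cyclins and kinases and 0.02 over the inhibitors, against -0.005 over all genes with a probe set. Mki67 read 6.45 and 5.94 in treated WT islets, against 6.76 and 6.13 in untreated WT islets (-0.25 ± 0.44), and Ccnd2 13.06 and 13.03, against 13.06 and 12.97 (0.03 ± 0.11), both with an adjusted p of 1.0.

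Whether tungstate acted differently in the genotypes was tested as an interaction, the tungstate difference in Irs2-/- islets minus that in WT islets. No division gene passed it (0 of 37, 0.0224% of all genes), and 12 of 37 had an unadjusted p under 0.05, against 6.45% of all genes: Mcm5, Mcm6, Rrm2, Bub1b, Ccnb2, Cdc20, Cdk1, Cks2, Mki67, Ube2c, Cdk6 and Ccnd2. Ccnb2 passed the filter only through the untreated Irs2-/- arrays, so its place in this count is a description. The interaction value was -1.46 ± 0.39 for Mcm5 (adjusted p = 0.615), -0.94 ± 0.24 for Cdk6 (0.557) and 0.47 ± 0.16 for Ccnd2 (0.695). Its median was -0.47 over the S phase and -0.86 over the mitotic genes. The difference between the genotypes in their response was therefore not detectable gene by gene with 2 arrays a group.

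Between the genotypes under tungstate, no division gene passed the test (0 of 37, 1.02% of all genes tested), and 3 had an unadjusted p under 0.05 (16.1% of all genes): Rrm2, Ccnd2 and Cdk4. Rrm2 read 7.01 and 7.32 in treated Irs2-/- islets, against 6.61 and 6.13 in treated WT islets (0.80 ± 0.24, adjusted p = 0.163). Ccnd2 read 12.64 and 12.66, against 13.06 and 13.03 (-0.39 ± 0.11, 0.137), and Cdk4 9.29 and 9.33, against 9.60 and 9.54 (-0.26 ± 0.11, 0.289). Both treated Irs2-/- arrays lay above both treated WT arrays for 6 of 44 genes (22.1% of all genes) and below them for 5 of 44 (22.2% of all genes). The medians were 0.06 over the S phase genes, -0.02 over the mitotic genes, 0.11 over the D cyclins and kinases and -0.19 over the inhibitors. Mki67 differed by -0.11 ± 0.44 (adjusted p = 0.934) and Mcm5 by 0.07 ± 0.28 (0.932).

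Averaged over treatment, 4 of 37 division genes were higher in Irs2-/- than in WT islets (10.9% of all genes tested) and 1 was lower (11.2% of all genes), shares at or under the background. The 4 were Rrm2 (1.23 ± 0.17, adjusted p = 0.00365), Mcm5 (0.80 ± 0.20, 0.0241), Cdk6 (0.62 ± 0.12, 0.0106) and Bub1b (0.48 ± 0.13, 0.0384), and the lower gene was Ccnd2 (-0.63 ± 0.08, 0.00259). Rrm2, Cdk6 and Ccnd2 passed it without each single array. Mcm5 did not pass without replicate 2 of untreated WT islets, either treated WT array or replicate 1 of treated Irs2-/- islets (adjusted p from 0.0608 to 0.0871). Bub1b did not pass without replicate 2 of untreated WT islets, either treated WT array, replicate 1 of untreated or replicate 2 of treated Irs2-/- islets (adjusted p from 0.0851 to 0.118). The number called higher was 19 without replicate 2 of untreated Irs2-/- islets, where 1342 of all 13369 genes were.

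Other genes of the cell cycle were read from lists of the same pathways. Of 26 tested genes of the wider replication list, 4 were higher in untreated Irs2-/- islets (Fen1, Pola2, Rfc5 and Rpa2) and 0 lower, against 8.27% and 8.52% of all genes tested. Fen1, the flap endonuclease of Okazaki fragments, differed by 0.76 ± 0.14 (adjusted p = 0.0136) and Pola2, a subunit of the primase complex, by 0.54 ± 0.11 (0.0183). Of 23 tested genes of the wider mitosis list, 6 were higher (Cdc25b, Cdca3, Cdca8, Cenpa, Incenp and Racgap1) and 0 lower, against the same shares of all genes. Uhrf1 of the replication list and Cenpa, Cenpf, Nuf2 and Tacc3 of the mitosis list passed the filter only through the untreated Irs2-/- arrays, their mean over the 6 other arrays being under it, so the Cenpa call is given as a description. Cenpa, the histone of the centromere, read 7.24 and 6.01 in untreated Irs2-/- islets, against 5.47 and 5.04 in untreated WT islets (1.37 ± 0.35, 0.0358), and Incenp, a passenger complex scaffold, differed by 0.81 ± 0.19 (0.0271). The medians of these lists, over genes with a probe set, were 0.32 (28 genes) and 0.37 (34 genes), beside 0.68 and 0.85 for the S phase and mitotic genes above.

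With tungstate in Irs2-/- islets, the medians of the wider replication and mitosis lists were -0.33 and -0.42. None of their genes passed limma's test, and 10 of 26 and 14 of 23 were lower at an unadjusted p under 0.05, against 9.55% of all genes. The genes tested include the 5 that passed the filter only through the untreated Irs2-/- arrays. For them a lower treated level was favoured in advance, so these counts are given as a description. Racgap1, which organises the midzone, came closest, at 6.07 and 6.29 in treated islets, against 7.28 and 6.92 in untreated ones (-0.92 ± 0.15, adjusted p = 0.0544). The regulators of these genes, the retinoblastoma, E2F and DREAM list (15 genes), had medians of -0.06 between the untreated genotypes and -0.09 with tungstate in Irs2-/- islets, and none of its 11 tested genes passed either test (2 were lower with tungstate at an unadjusted p under 0.05). E2f2 had the smallest p of these between the untreated genotypes (0.37 ± 0.12, adjusted p = 0.0623) and Rbl1, which encodes p107, with tungstate (-0.47 ± 0.15, 0.233). The other brakes of the cycle (9 genes) had medians of 0.14 and -0.23, with none called and 3 lower with tungstate at an unadjusted p under 0.05. Gadd45a, a growth arrest gene, had the smallest p of these in both, with 0.77 ± 0.24 (adjusted p = 0.0662) and -0.91 ± 0.24 (0.173). A list of other cyclins and cyclin-dependent kinases, with Mnat1 (10 genes), had medians of -0.01 and -0.06. None of these was called, and 0 were lower with tungstate at an unadjusted p under 0.05. Ccni (cyclin I) had the smallest p of these between the untreated genotypes (-0.48 ± 0.16, adjusted p = 0.0826).

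Of the 44 genes, 12 had 1 probe set and 32 several, 104 probe sets in all, and for 21 of the 32 all probe sets had the same sign between the untreated genotypes. The 3 probe sets of Rrm2 differed by 1.67, 1.40 and 1.15, and the 3 of Mcm5 by 1.54, 1.18 and 0.18, the last with the lowest level. The 2 probe sets of Cks2 differed by 1.10 and 1.18. Of the 3 of Bub1b, 2 were higher, by 0.79 and 1.15, and 1 was lower, at -0.23. Those of Cdk6 were at 1.09, 1.37 and -0.06. For Kif11 the probe set used, with 0.15, had the smallest difference of its 3, and the others were at 0.60 and 0.63.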

How the data were processed

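Gene expression in islets was measured on 8 Affymetrix arrays. Each array has deposited log2 values for its probe sets, and per the submitters' processing notes these were summarised with RMA (affy, R 2.7.0), and all 8 columns were used. Of 45037 probe sets besides 64 controls, 34945 name 1 gene in the platform annotation. Genes with a mean under log2 5.27 (40th percentile) were left out, leaving 13369 of 18193. The 4 group means were fitted in limma 3.58.1 (R 4.3.3) on all arrays (residual degrees of freedom 4, prior 3.89). Adjustment was by the Benjamini-Hochberg method over every gene tested, with a threshold of 0.05. The workflow was tested on simulated data. Tables and plots used Python 3.11.15, pandas 2.3.3 and matplotlib 3.10.9. Members, classes, gene lists, motifs and tests were chosen with earlier results of these data known. All members are named, Irs2, and of each wider list up to 4 genes with the smallest p in 2 comparisons (the untreated genotypes and tungstate in Irs2-/- islets). The called genes of the wider lists Cdc25b and Cdca8 fall outside this rule and were chosen after their values were seen. Same-numbered replicates were not taken as pairs, since the labels name nothing shared. Their deviations correlated between -0.066 and 0.418, the highest value being that of the untreated WT and untreated Irs2-/- arrays. With a replicate block, 8 division genes were called higher between those groups, in place of 5 (9.48% of all genes, in place of 8.27%). Alternatives were no filter, the 60th percentile, only the arrays compared, the replicate block, quantile normalization, median centring, mean of probe sets, a variance trend, marker covariates and leaving out each array. Scan dates and raw files were not used here.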

Additional observations from a re-analysis of the deposited data

How the results depend on the processing

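The called differences of single genes kept their direction in 200 of 200 alternatives and their call in 161, and 39 lost it. No alternative reversed the S phase or mitotic median between the untreated genotypes or with tungstate in Irs2-/- islets. The D cyclin and inhibitor medians between the untreated genotypes change sign with the untreated Irs2-/- array that is left out. Between the untreated genotypes, 5 genes were called higher, 3 with only the arrays compared, 8 with the replicate block, 2 to 24 when each array was left out in turn, 0 with the lymphocyte level as a covariate (0.583% of all genes, in place of 8.27%) and 1 without replicate 1 of both untreated groups (both settings chosen after seeing the data). Called lower was 1 gene (8.52% of all genes), and 0 with the lymphocyte covariate (0.262%). It was 2 with only the arrays compared (5.68%), quantile normalization (9.79%), median centring (9.13%) or the mean of probe sets (8.87%). For tungstate in Irs2-/- islets the count was 0, 1 with the replicate block, 2 with the acinar covariate and 0 to 18 when each array was left out (18 without replicate 2 of untreated Irs2-/- islets). For the treated genotypes it was 0, and 0 to 1 when each array was left out (Ccne2, without replicate 2 of treated Irs2-/- islets). For tungstate in WT islets and the interaction it was 0 in every alternative. For the genotypes averaged over treatment, 4 genes were called higher, 2 with the 60th percentile filter or the mean of probe sets, 2 to 19 when each array was left out, and 0 with the lymphocyte covariate. There 1 was called lower (11.2% of all genes), and 3 with the mean of probe sets (12.2%). It was 2 with the 60th percentile filter (14.6%), quantile normalization (12.6%) or the variance trend (12.0%).

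The S phase median between the untreated genotypes was 0.68, 0.15 with the lymphocyte covariate, 0.36 without both untreated replicate 1 arrays and 0.28 to 0.91 when each array was left out. The mitotic median was 0.85, 0.19 with that covariate and 0.42 to 1.30 when each array was left out. With tungstate in Irs2-/- islets the S phase median of -0.79 was -0.18, -0.40 and -1.09 to -0.40 under these settings, and the mitotic median of -1.04 was -0.33, -0.52 and -1.56 to -0.52. The cause was not tested. In fits that leave a group with 1 array, this array is assumed to vary like the other groups. The replicate block left the other counts as they were. Calls over all genes also moved between settings. Between the untreated genotypes, 5.75% were higher with only the arrays compared and 9.48% with the replicate block, in place of 8.27%. Averaged over treatment, 11.8% were higher with the 60th percentile filter and 2.42% with the lymphocyte covariate, in place of 10.9%. For tungstate in Irs2-/- islets, 0.613% were called with the replicate block, in place of 0.494%. Scaling moved the median of all genes by less than 0.1 (log2).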

Other observations

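The probe set that names Spc25, a kinetochore gene of the wider mitosis list, read 10.79 and 12.12 in treated Irs2-/- islets, 11.27 and 11.33 in untreated Irs2-/- islets, 12.13 and 12.35 in treated WT islets, and 12.43 and 12.05 in untreated WT islets. G6pc2, a beta cell gene that neighbours Spc25 in the RefSeq annotation with 0 genes lying between them, was lowest on the same 3 arrays, at 12.39 and 13.34, 12.80 and 12.68, 13.42 and 13.46, and 13.54 and 13.34 in the same groups. Ndc80 and Nuf2, partners of Spc25 in the NDC80 complex, were highest on the untreated Irs2-/- arrays, at 5.19 and 4.82 for Ndc80, against 4.71 and 4.70 in untreated WT islets, and at 6.10 and 5.39 for Nuf2, against 5.33 and 5.24. Ndc80 lay under the filter on low levels, and Nuf2 passed it only through the untreated Irs2-/- arrays. Whether the Spc25 probe set reads transcripts of the neighbouring gene was not tested, so its values cannot be taken as the level of Spc25 alone. These genes were chosen after their values were seen.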
